A study of Rattus norvegicus with 30 samples.

Results

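The immediate early AP-1 factors and the MAF factor Maff were followed in rat lung through severe acute pancreatitis (SAP) and its treatment with emodin or dexamethasone. The members were chosen by name, with earlier results of these data known: Fos, Fosb, Fosl1, Fosl2, Jun, Junb, Jund, Atf3, Egr1 and Maff. All 10 symbols were found, each on 1 row of the 22914 genes with counts, and all 10 passed the filter on low counts that left 15934 genes for testing.

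Lungs of 30 male Sprague Dawley rats, bought at 8 weeks of age, were sequenced, 3 rats in each of 10 groups. In the Sham groups the pancreas was only turned over during surgery, and in the Con groups sterile saline was run into the biliopancreatic duct. The SAP, DEX and Emo groups were given 5.0% sodium taurocholate by that route, a bile salt that injures the pancreas and, at a distance, the lung. DEX rats then had dexamethasone, a synthetic glucocorticoid, at 10 mg/kg by vein, and Emo rats had emodin, an anthraquinone from rhubarb, by stomach tube. The labels give the emodin dose as 10 mg/kg in one place and as 40 mg/kg in another. Doses were planned for 2 and 12 hours, so rats killed at 6 hours had the first dose only, and rats killed at 24 hours had both. Groups other than DEX had saline by vein, and groups other than Emo had carboxymethylcellulose by stomach tube. Each library is 1 rat, so the spread between libraries of a group holds both animal and technical variation.

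AP-1 is a dimer of basic leucine zipper (bZIP) proteins. FOS proteins (Fos, Fosb, Fosl1 and Fosl2) cannot pair among themselves and bind DNA with a JUN partner (Jun, Junb or Jund), whereas JUN proteins can also pair with each other and with Atf3. Most of these genes belong to the immediate early class: growth factors, cytokines, stretch and cell stress switch them on within minutes through MAP kinases and factors already present in the cell, and their transcripts are short-lived. Egr1 is a zinc finger factor of the same class and is no part of AP-1. Maff is a small MAF protein, a bZIP factor without a transactivation domain that acts through its partners.

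Promoter sequences are shown for Fosl2, Junb and Maff, the 3 members called higher in SAP at 24 hours below, with Jund, whose group means differed least, for contrast. They were chosen after the values were seen. The sequences are from RefSeq on the GRCr8 build, 250 bases upstream of the annotated start, written on the coding strand. Promoters were matched for 7 of the 10 members, Fosb, Fosl1, Fosl2, Maff, Jund, Egr1 and Junb. Capitals mark motifs found by exact match on either strand: TATAAA (the TATA box), TGACGTCA (the cAMP response element, CRE, bound by CREB and ATF factors), TGANTCA (the AP-1 site) and GCGNGGGCG (the EGR site).
Fosl2, chr6:30039270-30039519 on the minus strand: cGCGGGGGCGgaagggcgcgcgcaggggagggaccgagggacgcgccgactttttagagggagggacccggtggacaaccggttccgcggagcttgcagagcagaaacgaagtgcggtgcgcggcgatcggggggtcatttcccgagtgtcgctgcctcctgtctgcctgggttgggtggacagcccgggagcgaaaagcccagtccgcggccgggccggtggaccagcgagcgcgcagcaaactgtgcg
Junb, chr19:40080876-40081125 on the plus strand: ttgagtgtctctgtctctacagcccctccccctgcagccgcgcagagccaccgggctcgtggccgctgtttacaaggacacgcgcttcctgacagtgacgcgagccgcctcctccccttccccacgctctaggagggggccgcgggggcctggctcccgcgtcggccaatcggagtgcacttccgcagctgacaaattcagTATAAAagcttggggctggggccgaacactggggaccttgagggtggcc
Maff, chr7:112792537-112792786 on the plus strand: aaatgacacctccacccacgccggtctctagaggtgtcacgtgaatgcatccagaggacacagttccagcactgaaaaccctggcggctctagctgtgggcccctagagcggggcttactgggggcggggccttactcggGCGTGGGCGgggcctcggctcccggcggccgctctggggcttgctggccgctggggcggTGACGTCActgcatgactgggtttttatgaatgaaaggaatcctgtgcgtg
Jund, chr16:18769772-18770021 on the minus strand: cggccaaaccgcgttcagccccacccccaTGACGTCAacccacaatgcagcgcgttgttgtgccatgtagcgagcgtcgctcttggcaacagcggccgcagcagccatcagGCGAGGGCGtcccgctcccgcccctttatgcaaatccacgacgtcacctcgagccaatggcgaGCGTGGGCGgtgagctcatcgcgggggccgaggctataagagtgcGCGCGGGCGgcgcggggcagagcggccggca
The Junb promoter held TATAAA at bases -49 to -44 from the start, a motif present in 12.9% of the 33469 rat promoters of this length. The Maff promoter held TGACGTCA at bases -51 to -44 and GCGNGGGCG at -110 to -102, motifs present in 1.59% and 4.29% of promoters. Jund held TGACGTCA at -221 to -214 and GCGNGGGCG at 3 places, and Fosl2 held GCGNGGGCG at -249 to -241. Of the other members, Fosb held TATAAA on the opposite strand, at -180 to -175. Egr1 held 2 CArG boxes, the site of serum response factor, which 1.5% of promoters held. TGANTCA, TTCNNNGAA (the STAT site) and the kappaB site were found in 6.34%, 7.67% and 3.54% of all promoters and in none of the 7. No matches of different motifs overlapped in these 7 promoters. The 4 sequences shown had a GC content of 63.6% (Maff) to 70.4% (Fosl2), against a median of 51.2% over all promoters.

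Between 16813949 and 34692306 reads fell on genes in each library. By the paper's mapping summary, the share of reads that mapped uniquely was lower in every SAP, DEX and Emo library than in every Sham and Con library. At the later time every SAP library was also below every DEX library, and every DEX library below every Emo library. This difference runs with treatment and cannot be told apart from it here. Its part in the comparisons was not tested. Lung markers were high in every library: Sftpc, the surfactant protein of alveolar type 2 cells, was at 12700 to 30200 FPKM (fragments per kilobase of transcript, scaled to the mapped fragments), the club cell gene Scgb1a1 at 16300 to 46700 and the alveolar type 1 gene Ager at 368 to 1890. The summed level of 8 heart muscle genes ranged from 6.62 to 238 FPKM and that of 6 red blood cell genes from 377 to 12600 FPKM. One library stood apart in its heat shock genes. In SAP-24h replicate 1 the summed level of 9 heat shock chaperone genes was 5350 FPKM, against 439 and 911 FPKM in the other libraries of its group and 416 to 972 FPKM in all other libraries. This library also had the highest level of its group for 10 of the 10 members, so the main values that rest on SAP-24h are also given without it. Over all counts, Emo-6h replicate 3 also stood apart from its group. It differed from replicates 1 and 2 by a chi-square per degree of freedom of 133 and 167, against 40.1 between those.

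On the FPKM scale, which corrects for gene length, the members fell into 3 ranges. The JUN genes and Maff were abundant: means over the 30 libraries were 212 FPKM for Jund, 113 for Junb, 92.5 for Jun and 52.0 for Maff. Fos (14.0), Egr1 (10.5), Atf3 (7.94) and Fosl2 (7.64) came next, and Fosb (1.68) and Fosl1 (0.428) were low. Fosl1 rested on 1 to 210 reads per library, Fosl2 on 80 to 450 and Jund on 8143 to 16613.

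The highest group mean of a member exceeded the lowest by between 1.68 times (Jund, from 160 ± 12.9 FPKM in Sham-24h to 268 ± 38.0 in Emo-6h; SD, n = 3) and 17.0 times (Fosl1, from 0.0767 ± 0.0379 in Sham-6h to 1.3 ± 2.07 in DEX-24h). The SAP-24h group had the highest mean of Fosl2 (12.6 ± 4.03 FPKM), Junb (223 ± 149) and Egr1 (23.2 ± 24.2). None of these rankings held without SAP-24h replicate 1, where the means of the remaining 2 rats were 10.3 FPKM for Fosl2 (rank 3 of the 10 groups), 137 for Junb (rank 3) and 9.26 for Egr1 (rank 4). DEX groups had the highest means of Fos (21.3 ± 6.58, DEX-6h), Jun (158 ± 42.1, DEX-6h), Fosb (2.52 ± 2.49, DEX-24h) and Maff (98.0 ± 18.5, DEX-24h), and Emo-6h had that of Atf3 (13.1 ± 12.9). Without the highest rat of the group in question, the means were 0.105 FPKM for Fosl1 in DEX-24h (rank 8), 1.10 for Fosb in DEX-24h (rank 8), 5.73 for Atf3 in Emo-6h (rank 6) and 17.7 for Fos in DEX-6h (rank 2), while Jun, Maff and Jund kept rank 1. The highest mean of Fosl1 was then that of Emo-6h (0.923 FPKM), 12.0 times the lowest. That group held 1.83 FPKM in replicate 3 and 0.62 and 0.32 in replicates 1 and 2. In these checks the other groups kept all 3 rats, so a mean could only fall and its rank only stay or drop. Sham-24h had the lowest mean of Fosl2, Junb, Jund, Atf3 and Maff. When the 10 groups were put in order of their means, most neighbours did not separate: of the 9 neighbouring pairs of each gene, the gap exceeded the larger SD in 3 pairs for Maff, 2 for Jund, 1 each for Fosl2, Jun and Junb, and none for Fos, Fosb, Fosl1, Atf3 and Egr1.

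**Figure D1:**
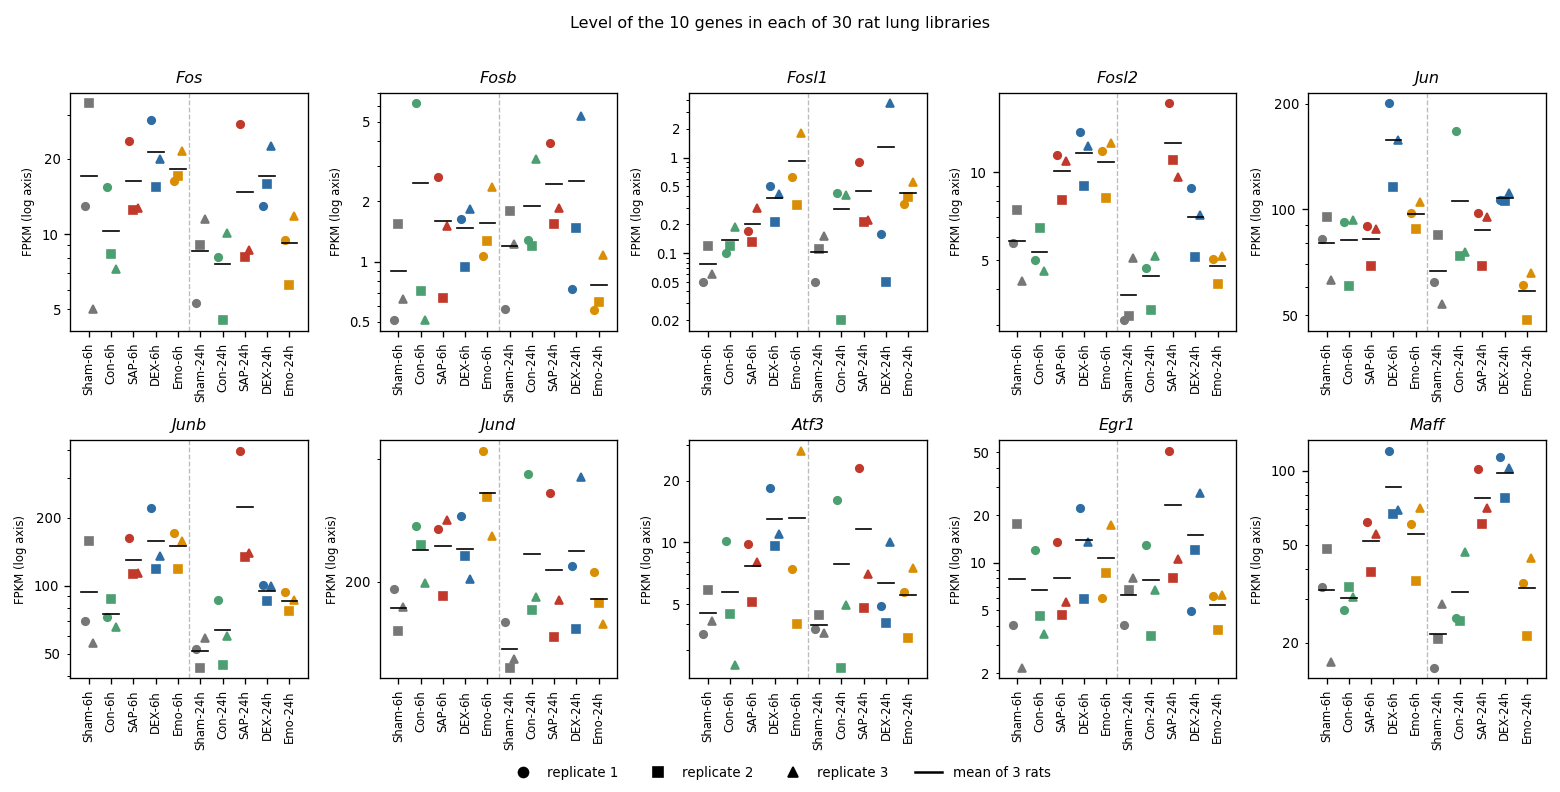
FPKM (log axis) of each of the 10 genes in each of the 30 libraries, by group, with a symbol for each replicate number, a colour for each treatment and the group mean as a line. Fosl2, Junb and Maff at 24 hours were higher in all 3 SAP rats than in all 3 Sham rats, and the circle of SAP-24h replicate 1 lies above the other libraries of its group in every panel.

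Rats of 1 group differed widely for some members and little for others. On log2(FPKM + 1), the pooled SD between rats of a group was 0.92 for Egr1, 0.77 for Atf3, 0.63 for Fos and 0.63 for Fosb, against a median of 0.18 over all tested genes. Egr1 lay at percentile 98.6 of all tested genes, Atf3 at 97.8 and Jund at 68.9. For Fosl2, Maff, Junb and Jun the SD of the 10 group means was larger than the SD between rats, by 1.88, 1.59, 1.33 and 1.16 times. For Egr1, Atf3, Fos, Fosb, Fosl1 and Jund it was smaller, with a ratio of 0.46 (Fosb) to 0.85 (Jund). The median of that ratio over all tested genes was 0.98.

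**Figure D2:**
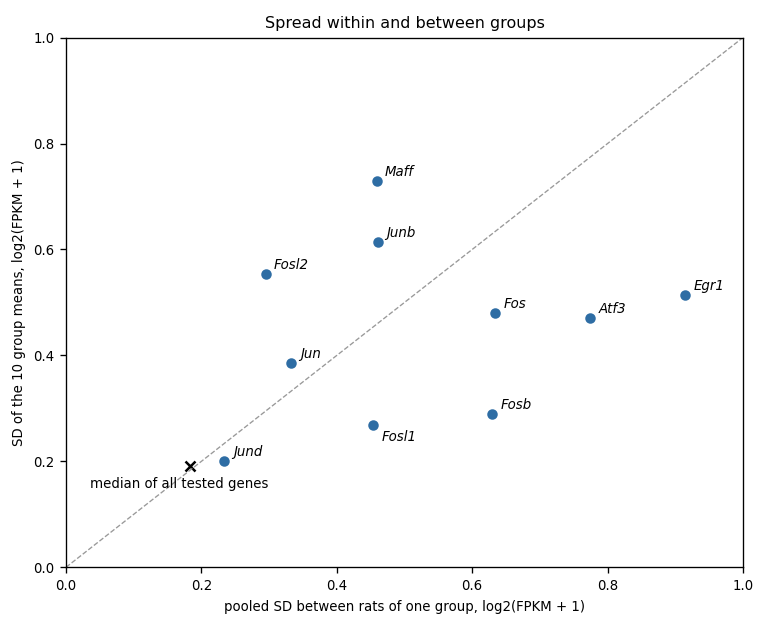
SD of the 10 group means (vertical axis) against the pooled SD between rats of 1 group (horizontal axis), both on log2(FPKM + 1), for the 10 genes. Fosl2, Maff, Junb and Jun lie above the dashed line of equal spread, and Egr1 lies farthest right, at 0.92. The cross is the median of all tested genes.

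High and low libraries were often the same for several members. DEX-6h replicate 1 was among the 3 highest of all 30 libraries for 7 members (Fos, Fosl2, Jun, Junb, Atf3, Egr1 and Maff) and SAP-24h replicate 1 for 7 (Fos, Fosb, Fosl1, Fosl2, Junb, Atf3 and Egr1). DEX-24h replicate 3 was among the 3 highest for 5 members, Fosb, Fosl1, Jund, Egr1 and Maff. At the low end, SAP-6h replicate 2 and Con-24h replicate 2 each had the lowest level of their group for 10 of the 10 members. No test was made of these ranks.

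SAP at 24 hours was compared first, with the Sham and Con groups of the same time. A gene was called where edgeR's quasi-likelihood test gave an adjusted p under 0.05 and a change of at least 2-fold. Fosl2, Junb and Maff rose in SAP-24h against Sham-24h, and no member fell. The other 7 members did not pass the test. Over all genes tested, 1.98% were called higher in this comparison, and 29.4% did not overlap between the groups in either direction.

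Fosl2, which encodes the FOS protein Fra-2, stood at 17.19, 11.04 and 9.60 FPKM in the 3 SAP-24h rats and at 3.12, 3.21 and 5.08 FPKM in the Sham-24h rats. The lowest SAP-24h rat was above the highest Sham-24h rat, and its log2 fold change was 1.87 (SE 0.29, adjusted p = 0.000894). Without SAP-24h replicate 1 it was 1.53 (adjusted p = 0.00525 by edgeR).

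Junb, the JUN protein that often limits Jun activity, stood at 395.76, 134.21 and 140.03 FPKM in SAP-24h and at 52.29, 43.40 and 58.56 FPKM in Sham-24h. The groups did not overlap, and 1 SAP-24h rat was far above the other two. The log2 fold change was 2.28 (SE 0.39, adjusted p = 0.00143), and 1.51 without SAP-24h replicate 1 (adjusted p = 0.0111 by edgeR).

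Maff stood at 101.43, 60.57 and 70.58 FPKM in SAP-24h and at 15.87, 20.64 and 28.86 FPKM in Sham-24h, again without overlap. It rose by a log2 fold change of 1.97 (SE 0.38, adjusted p = 0.00275 by edgeR), and 1.67 without SAP-24h replicate 1. Maff was among the transcripts that the study picked from these samples for quantitative PCR, so its change here is not independent evidence.

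Each of the 3 calls held in 6 of 6 fits that left out 1 library of either group. In a model of these 6 libraries alone none of the 3 passed (adjusted p = 0.0657 to 0.0957 by edgeR), and only 3 genes in all were called by that model, against 796 when the 30 libraries shared 1 estimate of the spread.

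Of the members that did not pass, Egr1 varied most: SAP-24h rats had 51.1, 7.95 and 10.56 FPKM, and Sham-24h rats had 4.01, 6.69 and 7.97. One SAP-24h rat lay within the Sham-24h range and the other two above it. The log2 fold change was 2.07 (SE 0.82, adjusted p = 0.0950 by edgeR), and it was 0.65 without SAP-24h replicate 1. Atf3, a stress-induced ATF factor, had 23.15, 4.82 and 7.04 FPKM in SAP-24h against 3.79, 4.44 and 3.63 in Sham-24h. Its log2 fold change of 1.73 (SE 0.71, adjusted p = 0.108 by edgeR) became 0.67 without the same library. Fos, the best known FOS gene, had 27.56, 8.07 and 8.65 FPKM against 5.28, 9.02 and 11.46, a log2 fold change of 0.94 (adjusted p = 0.257 by edgeR) that became 0.043 without that library. The log2 fold changes of Fosl1 (2.23), Fosb (1.17), Jund (0.52) and Jun (0.52) had adjusted p-values of 0.183, 0.348, 0.0872 and 0.223 by edgeR. Without SAP-24h replicate 1 they were 1.13, 0.58, 0.24 and 0.38.

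Against Con-24h, the same 3 members were called higher in SAP-24h, beside 3.65% of all genes. The Con-24h rats had 4.70, 3.37 and 5.17 FPKM of Fosl2, 86.68, 44.46 and 59.64 of Junb, and 25.23, 24.45 and 46.84 of Maff. Every SAP-24h rat lay above every Con-24h rat for these 3 genes, where 32.1% of all genes did not overlap in either direction. The log2 fold changes were 1.66 for Fosl2 (adjusted p = 0.000704 by edgeR), 1.97 for Junb (adjusted p = 0.0016) and 1.41 for Maff (adjusted p = 0.00981). Without SAP-24h replicate 1, Fosl2 (1.31) and Junb (1.18) were still called, and Maff was at 1.11 with an adjusted p of 0.0642 by edgeR. The Maff call was also lost without Con-24h replicate 1 or replicate 2, and in a model of these 6 libraries alone none of the 3 was called. Egr1 had a log2 fold change of 1.76 (adjusted p = 0.121 by edgeR), and 0.33 without SAP-24h replicate 1. Con-24h against Sham-24h gave no called member by edgeR or DESeq2, beside 1.0% and 1.35% of all genes by each, and 2 at an unadjusted p under 0.05 (Jun and Jund), beside 27.0%.

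Cell markers moved with these comparisons too. Of 7 T cell markers, 5 were called lower in SAP-24h than in Sham-24h, and their summed level was 17.5 to 21.2 FPKM against 56.5 to 84.3 FPKM. Of 8 tested neutrophil markers none was called against Sham-24h and 8 were called higher against Con-24h. Their summed level was 4430 to 16300 FPKM in SAP-24h, 198 to 9240 in Sham-24h and 101 to 953 in Con-24h. Summed levels of 3 other marker lists did not overlap between SAP-24h and Sham-24h: fibroblasts and smooth muscle (371 to 559 against 808 to 1020 FPKM), ciliated cells (348 to 619 against 700 to 795) and club cells (37500 to 47300 against 20000 to 36400). Against Con-24h, fibroblasts and smooth muscle, ciliated, endothelial, alveolar type 1 and T cell lists were lower in SAP-24h without overlap, and neutrophil and macrophage lists higher, by their summed levels. In the fibroblast list 2 markers were called lower and 1, Pdgfra, higher (means of 27.2 against 13.1 FPKM). The macrophage sum was mostly Lyz2, and 3 of its 9 markers had lower means. In bulk lung, fewer cells of a type and less RNA per cell cannot be told apart. The part of these markers and of the heat shock genes in the changes of Fosl2, Junb and Maff was not tested.

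The make-up of the JUN and FOS families differed between groups. Jund made up 57.5% ± 3.24 (SD, n = 3) of the summed FPKM of the JUN genes in Sham-24h and Junb 18.5% ± 3.19. In SAP-24h the shares were 41.6% ± 5.5 for Jund and 40.4% ± 10.1 for Junb. Junb took 22.6% ± 2.11 in DEX-24h and 25.7% ± 0.867 in Emo-24h. In the FOS family Fos had the largest mean share in the 10 groups, with 62.1% ± 3.14 in Sham-24h and 45.6% ± 8.86 in SAP-24h. The Fosl2 share was 28.5% ± 5.92 in Sham-24h and 44.9% ± 9.33 in SAP-24h, level with Fos within the spread between rats. The order in SAP-24h came from replicate 1: in the remaining 2 rats Fosl2 was the larger part, with a mean share of 50.1% against 40.6% for Fos. That order rests on the gene lengths used for FPKM. By reads, Fos was above Fosl2 in replicate 2 (476 against 305) and in replicate 3 (479 against 249). In these 2 rats Junb had a mean share of 34.7% of the JUN sum and Jund of 44.8%. JUN transcripts outweighed FOS transcripts in every group, with a ratio of the summed FPKM between 15.7 ± 1.74 (DEX-6h) and 29.1 ± 10.5 (Con-24h). These shares are descriptions and were not tested.

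**Figure D3:**
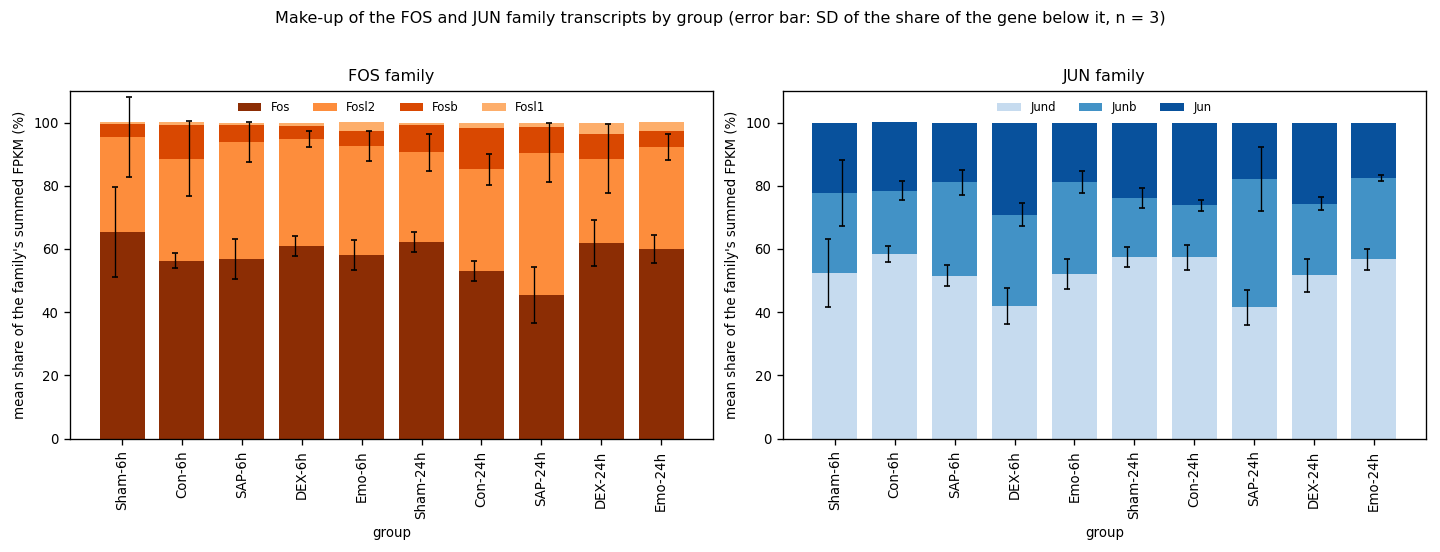
Mean share of each gene in the summed FPKM (percent) of the FOS family (left) and the JUN family (right), by group. Error bars, drawn for Fos, Fosl2, Jund and Junb at the top of their segments, are the SD of the share (n = 3 rats). The Junb segment is widest in SAP-24h, at 40.4%, and the Fosl2 segment likewise, at 44.9%.

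Dexamethasone at 24 hours was compared with SAP alone. Junb was the one member called, and it was lower in DEX-24h, beside 2.55% of all genes. Without regard to calls, 25.0% of all genes did not overlap between these groups. The DEX-24h rats had 100.34, 85.61 and 99.66 FPKM of Junb, all below the 3 SAP-24h rats (lowest 134.21). Its log2 fold change was -1.36 (SE 0.38, adjusted p = 0.0304 by edgeR). This call rested on SAP-24h replicate 1: without that library the log2 fold change was -0.57 (adjusted p = 0.357 by edgeR), and the call was also lost without any 1 of the 3 DEX-24h rats and in a model of these 6 libraries alone. Fosl2 had 8.80, 5.13 and 7.14 FPKM in DEX-24h, again below all SAP-24h rats, with a log2 fold change of -0.95 (adjusted p = 0.0362 by edgeR) that was under 2-fold. It was -0.60 without SAP-24h replicate 1 (adjusted p = 0.235 by edgeR), and it was called in 3 of 6 fits with 1 library left out, with values down to -1.14. Jun, at 105.84 to 111.14 FPKM in DEX-24h and 69.14 to 97.74 in SAP-24h, had a log2 fold change of 0.21 (adjusted p = 0.694 by edgeR). Fosl1 was at 1.38, Fos at 0.082, Jund at -0.015, Fosb at -0.079, Egr1 at -0.79 and Atf3 at -1.02, and none of these passed. Without SAP-24h replicate 1 these values were 2.49, 0.99, 0.28, 0.51, 0.64 and 0.048, and Jun was at 0.35. Marker lists that did not overlap in this comparison were lower in DEX-24h for neutrophils (1010 to 2970 against 4430 to 16300 FPKM), macrophages and monocytes (17800 to 21400 against 24200 to 31500), B cells and plasma cells (10.2 to 24.6 against 25.9 to 46.0) and club cells (25600 to 36400 against 37500 to 47300), and higher for endothelial cells (1570 to 1850 against 1390 to 1550). The club cell and endothelial sums did not stand for their lists: Scgb1a1 made up most of the former, with means of 31200 against 40600 FPKM, while the means of the other 4 club markers were higher in DEX-24h, and 3 of 6 endothelial markers had higher means and 3 lower. No marker of either list was called. Their part in the Junb and Fosl2 differences was not tested.

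The DEX-24h rats had 113.95, 77.67 and 102.36 FPKM of Maff, a range that overlapped that of SAP-24h (60.57 to 101.43). The log2 fold change against SAP-24h was 0.23 (SE 0.37, adjusted p = 0.746 by edgeR), and 0.54 without SAP-24h replicate 1. Against Sham-24h, Maff rose by a log2 fold change of 2.20 (SE 0.38, adjusted p = 0.0011 by edgeR), and this call held in 6 of 6 fits with 1 library left out and in the model of these 6 libraries alone. Called higher were 2 members, Maff and Fosl1, beside 0.992% of all genes. Fosl1, the gene of Fra-1, had 3.69 FPKM (210 reads) in DEX-24h replicate 3 but 0.16 and 0.05 FPKM (11 and 3 reads) in the other DEX-24h rats, against 0.05 to 0.15 FPKM in Sham-24h. Its log2 fold change of 3.62 (SE 1.10, adjusted p = 0.0473 by edgeR) was 0.098 without that library (adjusted p = 0.985), so it rested on 1 rat. Fosl2 (0.92, adjusted p = 0.0489 by edgeR) was under 2-fold but was called in 2 of 6 fits with 1 library left out (up to 1.24), and Junb (0.93, adjusted p = 0.156 by edgeR) did not pass. Fos had 12.95 to 22.54 FPKM against 5.28 to 11.46 in Sham-24h (1.02, adjusted p = 0.304 by edgeR). Jun had 105.84 to 111.14 FPKM against 53.89 to 84.74 (0.72, adjusted p = 0.126 by edgeR). Egr1 (1.28), Fosb (1.09), Atf3 (0.71) and Jund (0.51) did not pass either. Summed levels of the T cell, B cell and fibroblast and smooth muscle lists were lower in DEX-24h than in Sham-24h without overlap, and their part in the Maff call was not tested.

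Emodin at 24 hours was compared with SAP alone. Fosl2, Junb and Maff, the 3 members that rose in SAP-24h, were called lower in Emo-24h, beside 1.26% of all genes, and 29.3% of all genes did not overlap in either direction. Both comparisons share the SAP-24h rats. Fosl2 had 5.06, 4.14 and 5.18 FPKM in Emo-24h, all below the lowest SAP-24h rat. Its log2 fold change was -1.57 (SE 0.28, adjusted p = 0.00426 by edgeR), and -1.23 without SAP-24h replicate 1, where it was still called. This call held in 6 of 6 fits with 1 library left out.

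Junb had 94.15, 77.14 and 86.16 FPKM in Emo-24h, and Maff had 35.06, 21.28 and 44.04. None of these rats reached the lowest SAP-24h rat. The log2 fold change was -1.57 for Junb (SE 0.38, adjusted p = 0.0168 by edgeR) and -1.37 for Maff (SE 0.37, adjusted p = 0.0268). Both calls were lost without SAP-24h replicate 1 (-0.80 with an adjusted p of 0.15, and -1.08 with an adjusted p of 0.11, by edgeR) and without Emo-24h replicate 1 or replicate 2. In a model of these 6 libraries alone no gene at all was called. Of the marker lists, T cells (23.3 to 84.9 against 17.5 to 21.2 FPKM), B cells and plasma cells (54.2 to 86.5 against 25.9 to 46.0) and fibroblasts and smooth muscle (734 to 998 against 371 to 559) were higher in Emo-24h than in SAP-24h without overlap, and macrophages and monocytes (17300 to 20600 against 24200 to 31500) lower. The macrophage sum was mostly Lyz2 (means of 18800 against 26800 FPKM), and 5 of the 9 markers had higher means in Emo-24h, with none called. In the fibroblast and smooth muscle list 7 of 8 markers had higher means, but the one marker called, Pdgfra (means of 14.7 against 27.2 FPKM), was lower. Their part in these changes was not tested.

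The remaining members did not pass in this comparison. Egr1 had 6.15, 3.77 and 6.22 FPKM in Emo-24h, below all 3 SAP-24h rats, with a log2 fold change of -2.31 (SE 0.82, adjusted p = 0.0779 by edgeR). DESeq2 called it, beside 1.68% of all genes called lower by DESeq2, and without SAP-24h replicate 1 the value was -0.90. Fosb (-1.85, adjusted p = 0.151 by edgeR) and Jun (-0.74, adjusted p = 0.0943) were also lower in every Emo-24h rat than in every SAP-24h rat. Atf3 was at -1.26, Fos at -0.87, Jund at -0.31 and Fosl1 at -0.24, with adjusted p-values of 0.253, 0.306, 0.33 and 0.901 by edgeR. Without SAP-24h replicate 1, Fosb was at -1.27, Jun at -0.61, Atf3 at -0.21, Fos at 0.019, Jund at -0.033 and Fosl1 at 0.86. Against Sham-24h, Emo-24h gave no called member by edgeR or DESeq2, beside 0.0% of all genes by either, and none at an unadjusted p under 0.05, beside 3.0%. Log2 fold changes in that comparison were 0.31 for Fosl2, 0.71 for Junb, 0.60 for Maff and 1.99 for Fosl1. The Emo-24h rats lay above all Sham-24h rats for Junb and for Fosl1 (0.33 to 0.56 against 0.05 to 0.15 FPKM), and overlapped with them for the other 8 members, beside 8.62% of all tested genes that did not overlap in this comparison in either direction.

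**Figure D4:**
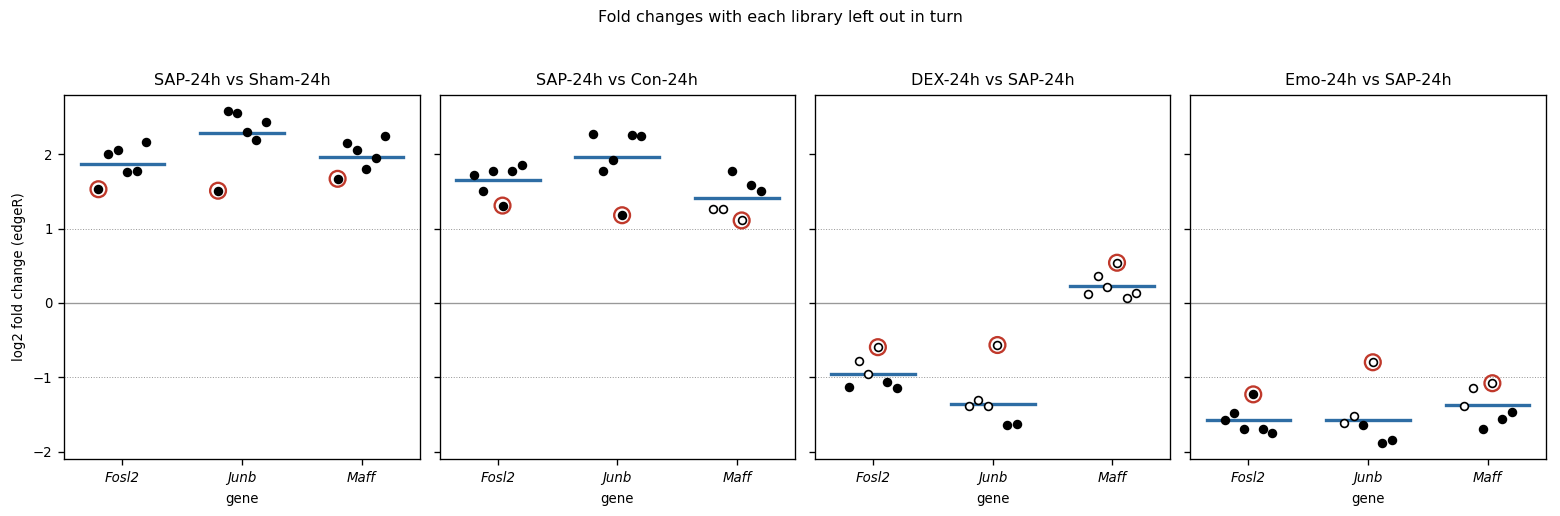
Log2 fold change of Fosl2, Junb and Maff in 4 comparisons (vertical axis), with all libraries (blue line) and with each of the 6 compared libraries left out in turn (points; filled where the adjusted p was under 0.05). Red rings mark the fits without SAP-24h replicate 1, and dotted lines mark 2-fold. All points stay filled for the 3 genes in SAP-24h vs Sham-24h and for Fosl2 in Emo-24h vs SAP-24h, but not for Junb and Maff in the latter.

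The drugs were then compared with each other at 24 hours, at the one dose of each. Maff was the one member called and was lower in Emo-24h than in DEX-24h, beside 1.24% of all genes, and 29.4% did not overlap in either direction. Its values were 21.28 to 44.04 FPKM against 77.67 to 113.95 FPKM, without overlap, a log2 fold change of -1.60 (SE 0.38, adjusted p = 0.00874 by edgeR). It was called in 5 of 6 fits with 1 library left out and lost without Emo-24h replicate 2 (adjusted p = 0.0646 by edgeR). Jun, at 60.95, 48.45 and 66.07 FPKM in Emo-24h and 106.03, 105.84 and 111.14 in DEX-24h, passed on p but not on size (log2 fold change -0.94, adjusted p = 0.0348 by edgeR). Fosl2 (-0.61) and Junb (-0.215) had adjusted p-values of 0.2 and 0.826 by edgeR. Known glucocorticoid target genes moved with this comparison: 8 of 12 tested (Tsc22d3 on 2 rows, both called) were called lower in Emo-24h, Fkbp5 (-2.19), Ddit4 (-1.82), Cdkn1a (-1.74) and Nfkbia (-1.61) most. Of the same list, 2 were called higher in SAP-24h than in Sham-24h (list median 0.16, beside 1.98% of all genes called higher), Mt2A (5.55, and 3.58 without SAP-24h replicate 1) and Cebpd (2.13, and 1.57), and 3 lower in Emo-24h than in SAP-24h, of which 1 was called without that library. Against SAP-24h, DEX-24h had 1 called higher, Sgk1 (1.92). Of the T cell markers 7 of 7 were called higher, with a summed level of 23.3 to 84.9 FPKM in Emo-24h against 11.3 to 17.6 FPKM in DEX-24h. Summed levels of the B cell, neutrophil and fibroblast and smooth muscle lists were also higher in Emo-24h without overlap, and that of the red blood cell list lower. Their part in the Maff difference was not tested.

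At 6 hours SAP alone gave no called member. Against Sham-6h, 0 of 10 members were called by edgeR or DESeq2, beside 0.22% and 1.15% of all genes by each, and 1 member, Fosl2, had an unadjusted p under 0.05, beside 13.1% of all genes. Fosl2 had 11.46, 8.02 and 10.89 FPKM in SAP-6h, all above the Sham-6h rats (5.73, 7.42 and 4.26), beside 15.3% of all genes that did not overlap. Its log2 fold change was 0.86 (SE 0.28, adjusted p = 0.168 by edgeR). Those of Junb and Maff were 0.52 and 0.73, with adjusted p-values of 0.606 and 0.411 by edgeR. Against Con-6h no member was called by edgeR or DESeq2 either, beside 0.163% and 0.584% of all genes, and 3 members had an unadjusted p under 0.05 (Fosl2, Junb and Maff), beside 10.4% of all genes. Con-6h against Sham-6h gave none by edgeR or DESeq2, beside 0.0% and 0.0439% of all genes, and none at an unadjusted p under 0.05, beside 8.61%.

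With dexamethasone at 6 hours, 3 members were called higher than in Sham-6h, beside 2.25% of all genes: Fosl2, Jun and Maff. In either direction, 26.7% of all genes did not overlap. Jun, the principal JUN protein of AP-1, had 200.20, 115.99 and 157.62 FPKM in DEX-6h against 82.33, 95.33 and 62.78 in Sham-6h. The groups did not overlap, and the log2 fold change was 1.03 (SE 0.28, adjusted p = 0.0224 by edgeR). With the replicate number added to the model as a block, Jun was at 0.99, under 2-fold, and was not called (adjusted p = 0.0191 by edgeR). Maff had 120.60, 66.54 and 69.62 FPKM against 33.87, 48.17 and 16.70, a log2 fold change of 1.44 (SE 0.37, adjusted p = 0.0175 by edgeR). Fosl2 had 13.67, 8.95 and 12.31 FPKM, also above every Sham-6h rat, a log2 fold change of 1.05 (SE 0.28, adjusted p = 0.0201 by edgeR). Junb was at 0.81 (adjusted p = 0.181 by edgeR).

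These 3 calls were not stable to single libraries. Without DEX-6h replicate 1, without Sham-6h replicate 1 or without Sham-6h replicate 3 none was called, without DEX-6h replicate 3 the one called was Maff, and without Sham-6h replicate 2 there were 4. In a model of these 6 libraries alone none of the 3 was called (adjusted p = 0.0575 to 0.0887 by edgeR). That model called Atf3 instead (log2 fold change 1.58, adjusted p = 0.0315 by edgeR), which had 1.57 and an adjusted p of 0.163 when the 30 libraries shared the spread. Of 12 tested glucocorticoid target genes 7 were called higher in DEX-6h than in Sham-6h (Mt2A 3.27, Cdkn1a 2.03, Fkbp5 2.01 and Pdk4 1.69 on the log2 scale), and 3 of 5 platelet markers were. Of the other cell markers, 2 of 9 for macrophages and monocytes and 1 of 7 for alveolar type 1 cells were called lower and 1 of 6 for ciliated cells higher. The summed platelet level was 122 to 249 FPKM in DEX-6h and 44 to 114 FPKM in Sham-6h. Against SAP-6h, 1 of the 12 glucocorticoid target genes was called higher in DEX-6h, Sgk1 (1.02). Their summed level was 3190 to 5300 FPKM in DEX-6h, 2190 to 2980 in SAP-6h and 1060 to 1710 in Sham-6h, without overlap. None was called in SAP-6h against Sham-6h. The part of these lists in the member calls was not tested. Against SAP-6h, DEX-6h gave no called member by edgeR or DESeq2, beside 0.515% and 0.935% of all genes, and 1 at an unadjusted p under 0.05 (Jun), beside 12.1%. Emodin at 6 hours gave none against SAP-6h by edgeR or DESeq2, beside 0.0251% and 0.144% of all genes, and 1 at an unadjusted p under 0.05 (Fosl1), beside 13.5%. Against Sham-6h it gave none by edgeR and 1 by DESeq2, beside 0.477% of all genes by edgeR and 1.3% by DESeq2, and 5 at an unadjusted p under 0.05 (Fosl1, Fosl2, Jund, Atf3 and Maff), beside 22.6%. Emo-6h against DEX-6h gave none by edgeR or DESeq2, beside 1.41% and 2.44% of all genes, and 1 at an unadjusted p under 0.05 (Jun), beside 17.3%.

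**Figure D5:**
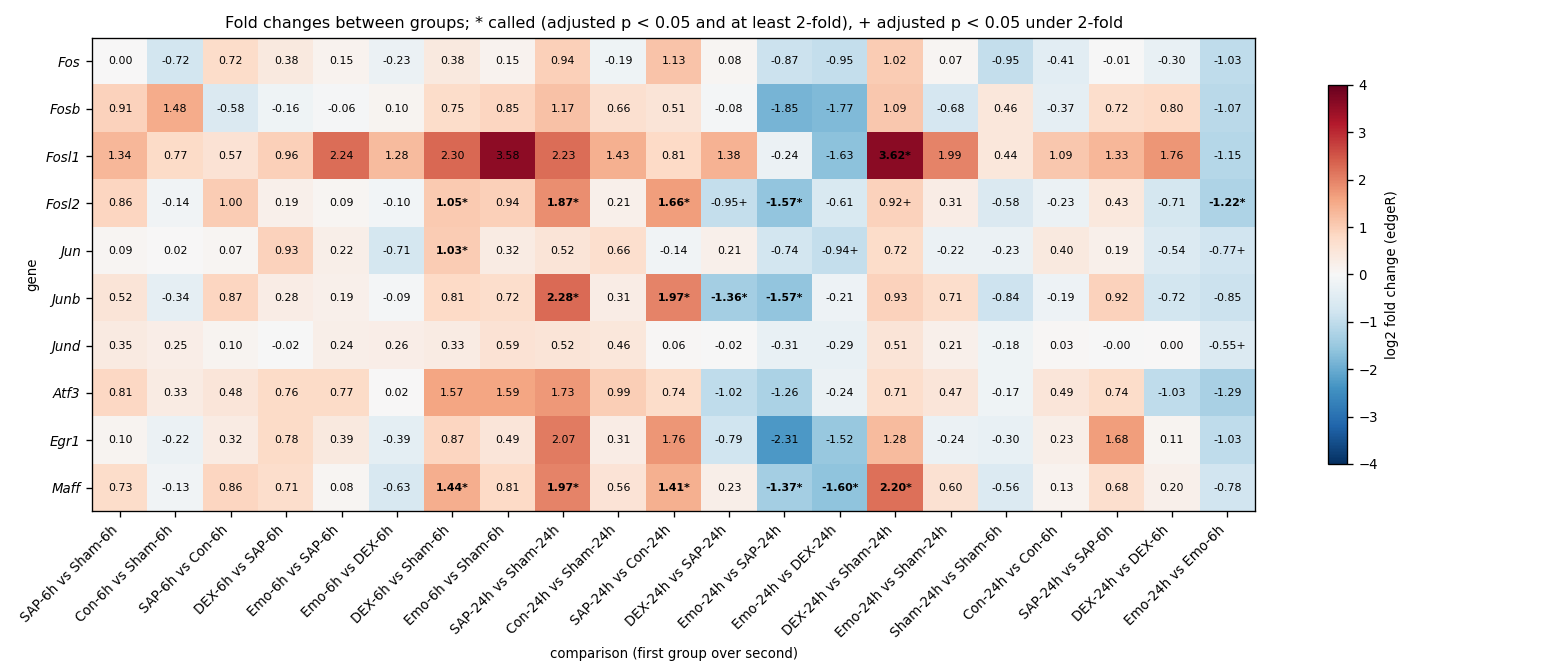
Log2 fold change by edgeR of the 10 genes (rows) in the 21 comparisons of 2 groups (columns), red where the first group is higher. A star marks an adjusted p under 0.05 with at least 2-fold, and a plus an adjusted p under 0.05 at a smaller change. Stars stand in the rows of Fosl1, Fosl2, Jun, Junb and Maff, and none stands in those of Fos, Fosb, Jund, Atf3 and Egr1.

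Between 6 and 24 hours of 1 treatment, 1 member was called in 1 of 5 comparisons. Fosl2 fell from Emo-6h (11.77, 8.15 and 12.56 FPKM) to Emo-24h (5.06, 4.14 and 5.18 FPKM), without overlap, beside 3.08% of all genes called lower and 47.7% that did not overlap. The log2 fold change was -1.22 (SE 0.28, adjusted p = 0.00212 by edgeR), and the call held in 6 of 6 fits with 1 library left out. The summed neutrophil level was higher in Emo-24h than in Emo-6h without overlap, with higher means for 7 of 9 markers and none of 8 tested called. The summed red blood cell, platelet and fibroblast and smooth muscle levels were lower, though in the last list 3 markers were called lower and 1, Dcn, higher (means of 104 against 24.6 FPKM). The alveolar type 1 sum was also lower, led by Ager (means of 834 against 1580 FPKM), while 4 of its 7 markers had higher means in Emo-24h and none was called. Of 12 glucocorticoid target genes, 6 were called lower in Emo-24h than in Emo-6h and none higher. Mt2A (-2.86), Cebpd (-1.68), Cdkn1a (-1.5) and Ddit4 (-1.34) changed most on the log2 scale. The part of these lists in the Fosl2 fall was not tested. Jun (-0.77, adjusted p = 0.035 by edgeR) and Jund (-0.55, adjusted p = 0.0363) passed on p but not on size. From SAP-6h to SAP-24h no member was called by edgeR or DESeq2, beside 2.42% and 3.73% of all genes, and 2 had an unadjusted p under 0.05 (Junb and Egr1), beside 24.8%. In SAP-24h against SAP-6h Fosl2 was at 0.43, Junb at 0.92 and Maff at 0.68, and without SAP-24h replicate 1 they were at 0.079, 0.13 and 0.38. The Sham, Con and DEX groups gave no called member between times by edgeR or DESeq2, beside 0.257%, 0.00628% and 7.14% of all genes by edgeR and 1.05%, 0.678% and 7.6% by DESeq2. At an unadjusted p under 0.05 they gave 1 (Junb), 0 and 1 (Fosl2), beside 20.4%, 10.5% and 37.8%. The difference in the emodin effect (Emo against SAP) between 24 and 6 hours was tested as an interaction. Fosl2 was called, with -1.65 (SE 0.39, adjusted p = 0.0295 by edgeR), beside 0.621% of all genes lower. This call held in 6 of 12 fits with 1 library left out and was lost in a model of the compared groups alone. Junb (-1.77, adjusted p = 0.0593 by edgeR) and Maff (-1.46, adjusted p = 0.096) did not pass. The interactions of the SAP effect and of the dexamethasone effect with time gave no called member by edgeR or DESeq2, beside 0.0314% and 0.138% of all genes by edgeR and 0.778% and 1.06% by DESeq2. At an unadjusted p under 0.05 they gave 3 members (Fosl2, Junb and Maff) and 2 (Fosl2 and Junb), beside 12.6% and 13.6% of all genes.

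Other genes of the pathway were counted from lists. Among 18 tested immediate early genes outside the members, 6 were called higher in SAP-24h than in Sham-24h and 1 lower, beside 1.98% and 3.01% of all genes. Nr4a3, an orphan nuclear receptor, led with a log2 fold change of 3.76, followed by Cyr61 (2.53), a matricellular protein, Gem (1.90), a small GTPase, and Myc (1.58), while Ctgf, another matricellular gene, fell by 1.56 on the log2 scale. The median of the list was 0.69, against -0.032 over all tested genes. In Emo-24h against SAP-24h 4 of these genes were called lower, Nr4a3 (-3.44), Gem (-2.09), Myc (-1.53) and Zfp36 (-1.41), and none higher, beside 1.26% and 1.93% of all genes. In DEX-24h against SAP-24h 3 were lower, Nr4a3 (-3.44), Egr2 (-1.45) and Gem (-1.36), and Ctgf was higher (2.03), beside 2.55% and 1.18% of all genes. The same shares apply to the lists that follow.

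Among 23 tested bZIP partners of the members, 3 were called higher in SAP-24h than in Sham-24h: Crem (2.23), a cAMP-responsive factor, Batf (1.30), a dimer partner of JUN in lymphoid cells, and Atf4 (1.28), the factor of the integrated stress response. None was lower. Crem (-2.34) and Atf4 (-1.07) were called lower in Emo-24h than in SAP-24h, and Batf3 (-2.22), Crem (-2.11) and Nfe2 (-1.90) in DEX-24h. Of 18 tested AP-1 target genes known from textbooks, 4 were higher in SAP-24h than in Sham-24h, Il6 (5.71), Timp1 (2.66), Plaur (1.31) and Hmox1 (1.18), and none lower. Il6 (-5.66), Timp1 (-2.08) and Plaur (-1.16) were lower in Emo-24h, and Il6 (-6.56) and Timp1 (-1.81) in DEX-24h, each against SAP-24h.

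Of 16 feedback phosphatases and inhibitors of MAP kinases, Spry2 (1.06) was called higher in SAP-24h than in Sham-24h, and of 23 MAP kinases and SRF or TCF factors, Map2k6 fell by 1.94 on the log2 scale. Map2k6, a kinase that activates p38, was also lower in DEX-24h than in Sham-24h (-1.76) and higher in Emo-24h than in SAP-24h (1.72) and DEX-24h (1.54). Dusp1, a MAP kinase phosphatase, was higher in DEX-24h than in Sham-24h (1.48) and lower in Emo-24h than in DEX-24h (-1.39). Dusp8 (-1.46) and Dusp1 (-1.03) were lower in Emo-24h than in Emo-6h, where Map2k6 (1.11) and Rps6ka3 (1.01) were higher. In DEX-6h against Sham-6h, Mapk10 was higher (2.46) and Elk3, an ETS partner of SRF, lower (-1.27). In that comparison 3 AP-1 target genes were called lower, Ccl2 (-3.54), Plau (-1.42) and Ccnd1 (-1.14), and 1 higher, Plaur (1.03), with 1 bZIP partner (Nfe2l3, 2.44) and 1 immediate early gene (Zfp36, 1.35) higher, beside 1.73% of all genes lower and 2.25% higher. No AP-1 target was called in SAP-6h or Emo-6h against Sham-6h. Heat shock chaperones were called higher in 7 of 8 tested genes in SAP-24h against Sham-24h (Hspa1b 4.64, Hsph1 2.63, Hspb1 2.31 and Dnajb1 1.39), lower in 7 of 8 in Emo-24h and lower in 5 of 8 in DEX-24h against SAP-24h. These list counts rested in part on SAP-24h replicate 1. Without it, the counts of genes higher in SAP-24h than in Sham-24h were 1 of 18 immediate early genes, 0 of 23 bZIP partners, 2 of 18 AP-1 targets and 2 of 8 chaperones, and 1 of 7 T cell markers was lower, while the median log2 fold change of these 7 went from -1.98 to -1.88. Calls over all genes also became fewer in that fit, at 1.02% higher and 1.47% lower. Without it, Emo-24h against SAP-24h gave 2 immediate early genes, 0 bZIP partners, 2 AP-1 targets and 0 chaperones lower, beside 0.737% of all genes lower and 1.01% higher. Without it, DEX-24h against SAP-24h gave 1 immediate early gene, 1 bZIP partner, 0 AP-1 targets and 0 chaperones lower, and 1 immediate early gene and 1 AP-1 target higher, beside 1.91% of all genes lower and 0.954% higher. Among the genes named above for SAP-24h against Sham-24h, the log2 fold change without it was 3.18 for Nr4a3 (still called), 0.55 for Cyr61, 1.08 for Gem and 0.65 for Myc, none of which was called, and the lower call of Ctgf was lost (-1.41, adjusted p = 0.0546 by edgeR). The Spry2 call was lost too (0.51, adjusted p = 0.0557 by edgeR), and Map2k6 was still called (-1.67). It was 0.72 for Crem, 1.15 for Batf and 0.77 for Atf4, and none of these 3 passed. Il6 was at 2.13 without passing, and Timp1 (2.03) and Plaur (1.28) were still called, as were Hspa1b (2.79) and Dnajb1 (1.09), while Hsph1 (0.92) and Hspb1 (0.28) were not. The median of the immediate early genes was 0.49 without it. Nr4a3 was also still called lower in Emo-24h (-2.85) and in DEX-24h (-2.83) than in SAP-24h. Gem (-1.28), Timp1 (-1.46) and Plaur (-1.14) were still called lower in Emo-24h, and Myc (-0.60), Zfp36 (-0.68), Crem (-0.83), Atf4 (-0.57) and Il6 (-2.08) were not. In DEX-24h against SAP-24h, Batf3 (-1.45) was still called lower and Ctgf (1.88) higher, and Egr2 (-0.85), Gem (-0.52), Crem (-0.58), Nfe2 (-1.76), Il6 (-2.96) and Timp1 (-1.17) were not called. In a model of the compared libraries alone, SAP-24h against Sham-24h and Emo-24h against SAP-24h gave 0 called genes in each of these lists.

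The genes whose pattern was most like that of each member are given by Pearson's r of log2(FPKM + 1) over the 30 libraries, as a description. The 30 libraries hold the 10 groups and share the libraries that stood apart, so these values reflect both. Fosl2 was nearest to Nuak2 (0.94), Junb (0.92) and Tead4 (0.92), and Junb to Stat3 (0.93), Fosl2 (0.92) and Mt2A (0.91), so these 2 members were each second on the list of the other among 12350 genes. Maff was nearest to AABR07004868.2 (0.91), its paralogue Mafk (0.90) and Ifrd1 (0.90), and Fosl2 came at rank 43. Fos was nearest to Dusp1 (0.82), Egr1 (0.79) and Tcf4 (0.78), Fosb to Egr1 (0.74), Btg2 (0.63) and Areg (0.63), and Egr1 to Cyr61 (0.87), Btg2 (0.86) and Zfp36 (0.81). Jun was nearest to Csrnp1 (0.85), Rhob (0.84) and Dusp1 (0.81), and Atf3 to Ppp1r15a (0.84), Rassf1 (0.82) and Socs1 (0.82). Fosl1 was nearest to Thbs1 (0.77), Fdx1 (0.76) and Tnfrsf12a (0.74), and Jund to Rrp9 (0.74), RGD1311946 (0.74) and Traf4 (0.74).

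Within groups, after each group mean was taken away, Fos and Egr1 were nearest to each other (r = 0.90, first on each other's list), and Maff was second on the list of Fosl2 (0.84). By rank correlation over the 30 libraries, none of the 3 nearest genes of Maff or Jund stayed the same, while 2 of 3 stayed for Fosb, Fosl2, Jun, Atf3 and Egr1, and 1 of 3 for Fos, Fosl1 and Junb. With 0.1 in place of 1 added to the FPKM before Pearson's r, 1 of 3 stayed for Fosl1, 2 of 3 for Atf3 and 3 of 3 for the other members.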

How the data were processed

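Poly(A) RNA from the lungs of 30 rats, 3 in each of 10 groups, was sequenced with a directional paired-end protocol. The submitters' processing notes and the methods name TopHat2, with an Ensembl rat genome, and reads that mapped to several places were discarded. The counting program is not given in the sources used here. The authors deposited raw read counts per gene for each rat (22914 genes) and FPKM, which divides by gene length and mapped reads. The members and the lists of other genes were chosen with earlier results of these data known.

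Counts were tested with edgeR 4.0.16 in R 4.3.3 (quasi-likelihood test, TMM scaling, 1 model of 10 groups and 30 libraries with 20 residual degrees of freedom). Genes were kept by filterByExpr (minimum count 10, minimum total 15), which left 15934. P-values are two-sided, with Benjamini-Hochberg adjustment across the whole tested table, and a call needed an adjusted p under 0.05 and at least 2-fold. The 21 comparisons of 2 groups and 3 differences with time were each adjusted on their own. Levels and correlations used FPKM and log2(FPKM + 1), with genes of a mean of at least 1 FPKM as candidates for likeness.

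All 10 members are described whatever their result. Of each list, at most the 4 called genes with the largest change in each direction are named, and of each member the 3 nearest genes. Alternatives were RLE scaling, DESeq2 1.42.0, no filter, a stricter filter (50 reads in 3 libraries), the compared groups alone, the replicate number as a block, and each library left out. In data simulated for SAP-24h against Sham-24h on 15766 genes, 36 of 100 genes changed 2-fold were called (61 passed the adjusted p), 92 of 100 changed 4-fold, and 4 unchanged genes. Libraries of a group differed beyond counting noise (chi-square per degree of freedom 37.4 to 208 over 30 pairs), so none was counted as a repeat. The sequenced reads carry no molecular identifiers.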

Additional observations from a re-analysis of the deposited data

Results flagged for a closer look

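One result differed between times by the test of the difference itself. The change of Fosl2 in Emo against SAP differed by -1.65 on the log2 scale between 24 and 6 hours (24 minus 6, SE 0.39, adjusted p = 0.0295 by edgeR). At 6 hours Fosl2 stood at 8.15 to 12.56 FPKM in Emo and 8.02 to 11.46 FPKM in SAP, which overlapped. At 24 hours it stood at 4.14 to 5.18 FPKM in Emo and 9.60 to 17.19 FPKM in SAP, which did not. With 1 of the 12 libraries left out, the adjusted p ranged from 0.0107 to 0.114, and the call was lost in 6 of 12 fits: without Emo-24h replicate 1 or 2, Emo-6h replicate 1 or 3, SAP-24h replicate 1 or SAP-6h replicate 2. The call was also lost in a model of the compared groups alone (adjusted p = 0.127 by edgeR).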

How the results depend on the processing

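RLE scaling, no filter and a stricter filter left the count of called members of all 24 comparisons as it was. In a model of the compared groups alone the counts were 1 for DEX-6h against Sham-6h (Atf3, in place of Fosl2, Jun and Maff), 0 for SAP-24h against Sham-24h, 0 for SAP-24h against Con-24h, 0 for DEX-24h against SAP-24h, 0 for Emo-24h against SAP-24h, 1 for DEX-24h against Sham-24h (Maff; Fosl1 was not among the 9 members tested), 2 for Emo-24h against Emo-6h (Fos and Fosl2) and 0 for Emo against SAP between times, and the cause was not tested. DESeq2 gave 1 for Emo-6h against Sham-6h (Fosl1), 4 for Emo-24h against SAP-24h (Egr1 added) and 3 for Emo against SAP between times, where the cause was not tested. With 1 library left out the counts ranged from 0 to 4 for DEX-6h against Sham-6h, 0 to 1 for Emo-6h against Sham-6h, 2 to 3 for SAP-24h against Con-24h, 0 to 2 for DEX-24h against SAP-24h, 1 to 4 for Emo-24h against SAP-24h, 0 to 2 for Emo-24h against DEX-24h, 1 to 3 for DEX-24h against Sham-24h, 1 to 2 for Emo-24h against Emo-6h and 0 to 3 for Emo against SAP between times. The log2 fold changes of Emo-24h against SAP-24h ranged from -1.21 to 0.019 for Fos and from -0.62 to 0.86 for Fosl1.

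Replicate numbers are shared by the groups but do not pair the rats: deviations of same-numbered libraries had a median correlation of -0.0065 over 135 pairs, against 0.0097 over 270 pairs with different numbers, and 8 of 30 libraries correlated best with their own number. With the replicate number as a block the count of DEX-24h against Sham-24h was 1, since Fosl1 had an adjusted p of 0.0788 by edgeR. The block also ended the Jun call in DEX-6h against Sham-6h, where the log2 fold change of 0.99 fell under 2-fold (adjusted p = 0.0191 by edgeR), and it ended no other member call.

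The levels and family shares of SAP-24h without replicate 1, and the highest group means without their highest rat, were computed after seeing the data. Depth limits Fosl1, with 1 to 210 reads per library. The share of uniquely mapped reads differed with treatment, and its part in the member calls was not tested. With 3 rats a group, 61 of 100 simulated 2-fold changes passed the adjusted p and 36 were also estimated at 2-fold or more, so a missing call does not show that a member was unchanged.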
